A study of Mus musculus with 45 samples.

Results

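The collagen genes and a small set of partner genes of the connective tissue matrix were followed across the ileum of mice in which epithelial cell death is genetically altered. The members were all genes of the deposited table whose symbol has the form of a collagen chain (42 genes, such as Col1a1 or Col6a4), together with Postn, Sparc, Dcn, Lum, Fn1 and Thy1 (6 genes). This gave 48 of the 19494 genes with a symbol, each read by 1 probe. RNA from whole ileum of 45 mice was measured, 1 array per mouse and 5 mice in each of 9 groups. Per the labels the mice were about 11 weeks old, on regular chow in a specific-pathogen-free facility, and the sex was not given.

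Fadd fl/fl and Casp8 fl/fl mice carry floxed alleles and served as controls. FADD IEC-KO and CASP8 IEC-KO mice lack the adaptor FADD or the protease caspase-8 in intestinal epithelial cells. FADD IEC-KO Mlkl -/- and CASP8 IEC-KO Mlkl -/- mice are labelled as null for Mlkl, which encodes the executioner of necroptosis. FADD IEC-KO Zbp1 -/- mice are labelled as null for Zbp1, which encodes a nucleic acid sensor. FADD IEC-KO RIPK3 IEC-KO mice lack the necroptosis kinase RIPK3 in the epithelium. The ninth group, FADD IEC-KO CASP8 IEC-KO Mlkl -/-, is called the triple mutants here; its titles name all of these alleles, whereas its genotype field names CASP8 IEC-KO Mlkl -/- alone. The driver of the epithelial deletion is not given in the labels, and cells outside the epithelium, which are part of whole ileum, are not targeted by it. The comparisons ask how loss of FADD or caspase-8 in the epithelium, with or without these cell death genes, goes together with RNA levels in the tissue.

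Collagens are secreted proteins that assemble into triple helices and give the gut wall its strength. Fibrillar collagens form the cables of the connective tissue and type IV collagens the sheet under the epithelium and around vessels. Type VI collagens form beaded filaments between these structures, and the remaining classes coat fibrils, span membranes or form other networks. In the intestine most of this matrix is made by fibroblasts of the lamina propria and submucosa, by smooth muscle and by vessel cells, not by the epithelium in which the floxed genes were deleted. In bulk tissue, fewer cells of a type and less RNA per cell cannot be told apart.

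Values are the log2 intensities deposited by the authors, on which a difference of 1 is a 2-fold change. Array medians lay between 6.36 and 6.44. Markers of ileal epithelium were high on every array, with Fabp6, a bile acid binding protein, at 11.89 to 12.95, the bile acid transporter Slc10a2 at 11.22 to 11.94 and the brush border protein Vil1 at 11.35 to 11.86. Fadd lay between 7.46 and 7.61 in Fadd fl/fl and between 5.96 and 6.45 in 4 FADD IEC-KO mice. It was 7.32 in the library labelled FADD IEC-KO replicate 1, inside the range of 7.27 to 7.56 of Casp8 fl/fl mice. This value goes against the label, so calls in FADD IEC-KO against Fadd fl/fl are also given without this mouse. Zbp1 averaged 6.04 ± 0.31 (SD, n = 5) in FADD IEC-KO Zbp1 -/-, against 7.14 ± 0.73 in Fadd fl/fl. Its range of 5.66 to 6.46 in FADD IEC-KO Zbp1 -/- overlapped with Fadd fl/fl (6.23 to 7.72) and FADD IEC-KO (5.83 to 7.94). By overlap, the Zbp1 values do not bear out the label, and directions drawn from this group rest on it. Ripk3 averaged 7.50 ± 0.17 in FADD IEC-KO RIPK3 IEC-KO, against 8.26 ± 0.25 in Fadd fl/fl. These ranges, 7.33 to 7.76 and 7.90 to 8.47, did not overlap. Casp8 was 11.24 to 11.49 in Casp8 fl/fl, 9.63 to 10.89 in CASP8 IEC-KO and 9.56 to 10.06 in CASP8 IEC-KO Mlkl -/-. In triple mutants Casp8 was 9.46 to 9.68 and Fadd 5.34 to 6.52, both below their floxed groups, which bears out the titles of this group. Mlkl was 6.94 to 7.32 in triple mutants, well below 8.31 to 9.09 in Fadd fl/fl and 8.43 to 8.98 in Casp8 fl/fl. In the group labelled FADD IEC-KO Mlkl -/- (7.85 to 8.39) it overlapped with Fadd fl/fl but lay below all Casp8 fl/fl mice. In the group labelled CASP8 IEC-KO Mlkl -/- (8.18 to 8.66) it overlapped with both floxed groups. Mlkl was 8.51 to 9.53 in FADD IEC-KO, above all FADD IEC-KO Mlkl -/- mice. In CASP8 IEC-KO it was 8.54 to 9.18, which overlapped with CASP8 IEC-KO Mlkl -/-. Means were 8.43 ± 0.22 in CASP8 IEC-KO Mlkl -/-, 8.62 ± 0.21 in Casp8 fl/fl and 8.99 ± 0.26 in CASP8 IEC-KO. By overlap, the Mlkl values of CASP8 IEC-KO Mlkl -/- mice do not bear out the label. Where the Mlkl probe lies in relation to the altered part of the gene is not given in the sources used here, and directions drawn from these groups rest on their labels. The sample titles carry numbers either under 100 (28 mice) or of 200 and over (17 mice), with no statement of what they stand for. Results are therefore also given within each number series. The triple mutants fell wholly in the higher series and FADD IEC-KO Mlkl -/- mice wholly in the lower one, while the other groups held mice of both.

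The members that changed were mostly those of the interstitial matrix, and the largest falls were found in FADD-deficient mice with a further deletion of Mlkl, Zbp1 or Ripk3 by label. Each of these groups was compared with the same 5 Fadd fl/fl mice, so the comparisons are not independent and their values are given side by side. In FADD IEC-KO mice Postn and Sparc fell (2 of 48 members), at an adjusted p under 0.05 in limma, against 1.92% of all 19494 genes that fell. In FADD IEC-KO Mlkl -/- mice 13 members fell and none rose, against 6.35% of all genes that fell. FADD IEC-KO Zbp1 -/- mice had 9 lower members (7.08% of all genes fell) and Col8a1 higher (4.78% of all genes rose). Among FADD IEC-KO RIPK3 IEC-KO mice 8 fell and none rose, against 0.662% of all genes that fell. The median log2 change of the members was -0.11, -0.13, -0.01 and -0.09 in these 4 comparisons, and that of all genes between -0.01 and 0.01.

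Groups without any overlap between mice gave a similar picture. In FADD IEC-KO, 2 members had all 5 mice below every Fadd fl/fl mouse (1.59% of all genes), namely Postn and Col14a1. FADD IEC-KO Mlkl -/- mice had 10 such members (5.63% of all genes). FADD IEC-KO Zbp1 -/- mice had 6 (3.64% of all genes), and FADD IEC-KO RIPK3 IEC-KO mice had 10 (1.58% of all genes). The count for FADD IEC-KO depended on single mice. It was 2 without the library labelled replicate 1, which has the high Fadd value, 1 without replicate 2, 8 without replicate 5 and 4 without Fadd fl/fl replicate 1. The count for FADD IEC-KO RIPK3 IEC-KO was 5 without Fadd fl/fl replicate 4. Among mice with title numbers under 100 alone, which leaves 2 Fadd fl/fl mice, the 4 counts were 0, 3, 0 and 0. Among mice with numbers of 200 and over the FADD IEC-KO count was 0, with 1 FADD IEC-KO mouse left. In this higher series, which holds 3 Fadd fl/fl mice and no FADD IEC-KO Mlkl -/- mouse, the 2 FADD IEC-KO Zbp1 -/- mice had 10 lower members and the 2 FADD IEC-KO RIPK3 IEC-KO mice 6. The shares of all genes called without single mice or within a series are not given here. These counts therefore do not show whether the members moved apart from all genes. Col3a1 changed by -0.53 (adjusted p = 0.367) and -1.04 (adjusted p = 0.00154) in the lower and higher series in FADD IEC-KO Zbp1 -/-. Col5a1 changed by -0.88 (adjusted p = 0.631) and -0.97 (adjusted p = 0.0413) in FADD IEC-KO RIPK3 IEC-KO. The Fadd fl/fl mice of the higher series, replicates 3 to 5, lay above replicates 1 and 2 for many members. This held for every member called lower in FADD IEC-KO Mlkl -/- except Col6a1. As all FADD IEC-KO Mlkl -/- mice are in the lower series, series and genotype are partly mixed in that comparison.

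**Figure D1:**
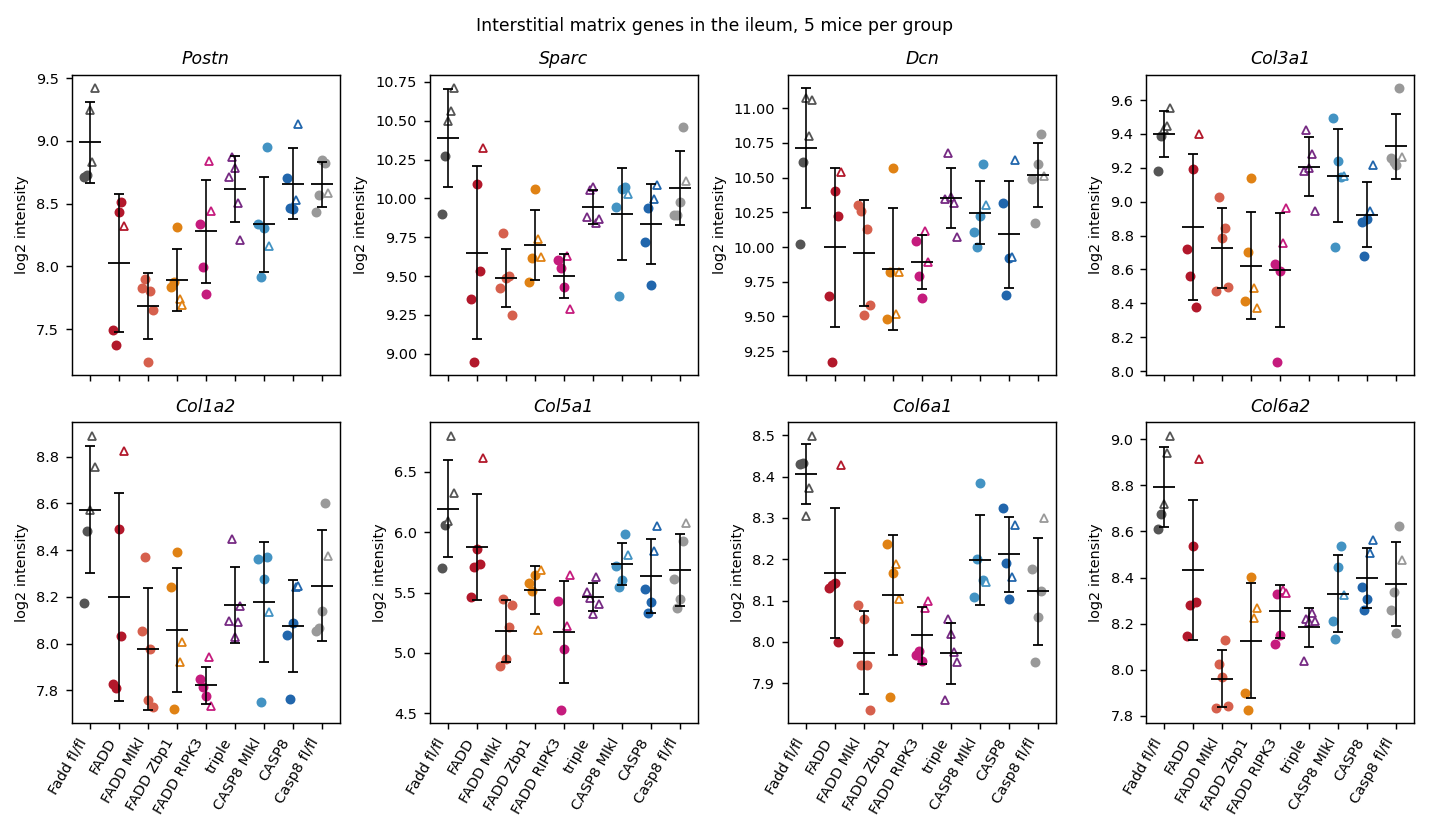
Log2 intensity of 8 interstitial matrix genes (panels) in the 9 genotype groups (x axis), 1 symbol per mouse; filled circles are mice with title numbers under 100, open triangles those of 200 and over, and bars give the mean ± SD of 5 mice. Postn lies between 8.71 and 9.42 in Fadd fl/fl and between 7.24 and 7.90 in FADD IEC-KO Mlkl -/-, and the FADD IEC-KO mice are spread widely in most panels.

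Of all genes, 28.5% were called in at least 1 of the 15 comparisons, and of the 48 members 18. Among the 11 fibrillar collagens, 5 were called in at least 1. Promoters are printed for Col1a2, Col3a1 and Col5a1, the fibrillar genes called lower in each of the 3 double mutants with FADD loss against the shared Fadd fl/fl mice. Each sequence is the 250 bases before the RefSeq start of the gene (GRCm38.p6, plus strand), at chr6:4505368-4505617, chr1:45311288-45311537 and chr2:27886175-27886424. Capitals mark matches to the TATA motif TATAAA, the CCAAT box CCAAT and the GC box GGGCGG on either strand; no match overlapped another.
Col1a2: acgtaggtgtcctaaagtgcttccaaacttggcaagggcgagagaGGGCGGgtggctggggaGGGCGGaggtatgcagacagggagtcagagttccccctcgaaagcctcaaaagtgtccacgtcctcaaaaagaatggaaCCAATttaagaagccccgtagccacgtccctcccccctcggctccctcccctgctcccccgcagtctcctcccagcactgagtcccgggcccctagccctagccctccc
Col3a1: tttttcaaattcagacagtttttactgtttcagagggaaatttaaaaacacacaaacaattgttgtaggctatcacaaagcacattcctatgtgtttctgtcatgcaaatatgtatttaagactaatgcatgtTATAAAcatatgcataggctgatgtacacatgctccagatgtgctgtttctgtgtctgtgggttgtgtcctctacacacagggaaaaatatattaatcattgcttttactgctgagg
Col5a1: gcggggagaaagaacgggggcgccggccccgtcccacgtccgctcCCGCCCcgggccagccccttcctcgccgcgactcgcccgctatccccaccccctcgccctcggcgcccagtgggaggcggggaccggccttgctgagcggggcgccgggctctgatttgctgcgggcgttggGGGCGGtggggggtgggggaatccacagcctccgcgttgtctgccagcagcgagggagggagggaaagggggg
The window of Col1a2 holds 1 CCAAT and 2 GGGCGG matches, that of Col3a1 1 TATAAA match, and that of Col5a1 2 GGGCGG matches. Of the 48 members 36 had a RefSeq window, and in these TATAAA was found for 6 members, CCAAT for 12 and GGGCGG for 20. Of all 32851 windows of this length, 12.4%, 33.8% and 32.7% held these motifs. A match is a description of the letters and was not set against the expression values.

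Col5a1 encodes a chain of type V collagen, which starts and limits the growth of type I fibrils. It was 5.70, 6.06, 6.09, 6.79 and 6.32 in the 5 Fadd fl/fl mice and 4.89, 5.45, 4.95, 5.22 and 5.40 in FADD IEC-KO Mlkl -/- mice. All mice of the second group lay below all of the first, and the change was -1.01 ± 0.19 (SE; adjusted p = 0.000332), a 2.02-fold fall. It was 5.43, 4.53, 5.04, 5.22 and 5.65 in the FADD IEC-KO RIPK3 IEC-KO mice (-1.02 ± 0.19, adjusted p = 0.00249). Values of 5.58, 5.51, 5.65, 5.19 and 5.69 were found in FADD IEC-KO Zbp1 -/- mice (-0.67 ± 0.19, adjusted p = 0.0139). Neither group overlapped with Fadd fl/fl. Without Fadd fl/fl replicate 4 the last change was -0.52 (adjusted p = 0.0679). In FADD IEC-KO itself the values were 5.46, 5.71, 5.86, 5.74 and 6.61, overlapping with the controls, and the change of -0.32 did not pass the test (adjusted p = 0.38).

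Col5a1 also differed between FADD-deficient groups. It was lower in FADD IEC-KO Mlkl -/- than in FADD IEC-KO by 0.70 ± 0.19 (adjusted p = 0.0417, no overlap), and FADD IEC-KO RIPK3 IEC-KO differed from FADD IEC-KO by -0.70 ± 0.19 (adjusted p = 0.0431, with overlap). FADD IEC-KO replicate 5, the only mouse of this group with a title number of 200 and over, had the highest value, 6.61. Without it the differences were -0.51 (adjusted p = 0.229) and -0.52 (adjusted p = 0.205), and without replicate 1 they were -0.80 (adjusted p = 0.0177) and -0.81 (adjusted p = 0.0224). In mice with title numbers under 100 they were -0.51 (adjusted p = 0.138) and -0.69 (adjusted p = 0.177).

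Col3a1 encodes type III collagen, which forms thin fibrils with type I collagen in distensible organs. Its values were 9.18, 9.39, 9.43, 9.44 and 9.55 in Fadd fl/fl, 8.47, 9.03, 8.79, 8.85 and 8.50 in FADD IEC-KO Mlkl -/-, and 8.41, 8.71, 9.14, 8.49 and 8.37 in FADD IEC-KO Zbp1 -/-. The FADD IEC-KO RIPK3 IEC-KO mice had 8.63, 8.05, 8.59, 8.76 and 8.96. None of the 3 groups overlapped with Fadd fl/fl. The changes were -0.67 ± 0.16 (adjusted p = 0.00576), -0.77 ± 0.16 (adjusted p = 0.00132) and -0.80 ± 0.16 (adjusted p = 0.00712). FADD IEC-KO mice ranged from 8.38 to 9.40, overlapping with the controls, with a change of -0.55 ± 0.16 that missed the threshold at an adjusted p of 0.0501. This change was -0.51 (adjusted p = 0.0918) without FADD IEC-KO replicate 1, -0.47 (adjusted p = 0.14) without replicate 2 and -0.68 (adjusted p = 0.0147) without replicate 5.

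Col1a2 and Col1a1 encode the 2 chains of type I collagen, the main fibril of most connective tissue. Col1a2 was 8.17, 8.48, 8.57, 8.89 and 8.75 in Fadd fl/fl and 7.85, 7.81, 7.78, 7.94 and 7.73 in the 5 FADD IEC-KO RIPK3 IEC-KO mice, with no overlap (-0.75 ± 0.16, adjusted p = 0.00821). In FADD IEC-KO Mlkl -/- mice it ranged from 7.73 to 8.37 (-0.60, adjusted p = 0.0109) and in FADD IEC-KO Zbp1 -/- mice from 7.72 to 8.39 (-0.52, adjusted p = 0.0265), both overlapping with Fadd fl/fl. The Col1a2 call in FADD IEC-KO RIPK3 IEC-KO was lost without Fadd fl/fl replicate 4 (-0.67, adjusted p = 0.0522), and that in FADD IEC-KO Zbp1 -/- without its replicate 2 (-0.43, adjusted p = 0.0914). Col1a1 fell in FADD IEC-KO Zbp1 -/- mice, from 8.36, 8.30, 8.57, 8.67 and 8.52 in Fadd fl/fl to 7.83, 7.80, 8.28, 8.07 and 8.02 (-0.48, adjusted p = 0.0105). These groups did not overlap. Its changes of -0.32 in FADD IEC-KO Mlkl -/- (adjusted p = 0.111) and of -0.47 in FADD IEC-KO RIPK3 IEC-KO (adjusted p = 0.0612) did not pass the test. The fifth fibrillar gene, Col5a2, a second chain of type V collagen, differed only in the comparison of triple mutants with FADD IEC-KO Mlkl -/- mice described further on. Col2a1, Col5a3, Col11a1, Col11a2, Col24a1 and Col27a1 passed the test in none of the 15 comparisons.

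Of the 6 type VI chains, Col6a1, Col6a2, Col6a3 and Col6a4 were called in at least 1 comparison (28.5% of all genes were), and Col6a5 and Col6a6 in none. Col6a1 and Col6a2 pair with a longer chain such as Col6a3 in the assembled molecule. Col6a2 was 8.61, 8.68, 8.72, 8.94 and 9.01 in Fadd fl/fl and 7.83, 8.03, 7.97, 8.13 and 7.84 in FADD IEC-KO Mlkl -/-. The groups were well apart, with a change of -0.83 ± 0.12 (adjusted p = 5.08e-06). It was 7.90, 7.83, 8.40, 8.23 and 8.27 in FADD IEC-KO Zbp1 -/- (-0.67 ± 0.12, adjusted p = 0.000119) and 8.11, 8.33, 8.15, 8.35 and 8.34 in the FADD IEC-KO RIPK3 IEC-KO mice (-0.54 ± 0.12, adjusted p = 0.00864). These groups too did not overlap with Fadd fl/fl. The FADD IEC-KO mice ranged from 8.15 to 8.91, with replicate 5 the highest, and the change of -0.36 did not pass the test (adjusted p = 0.0665). It was -0.29 (adjusted p = 0.177) without replicate 1 and -0.48 (adjusted p = 0.0108) without replicate 5.

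Col6a1 varied little among mice of a group. It was 8.43, 8.43, 8.30, 8.37 and 8.50 in Fadd fl/fl and 8.09, 7.94, 8.05, 7.95 and 7.84 in FADD IEC-KO Mlkl -/- (-0.43 ± 0.08, adjusted p = 0.000215). It was between 7.87 and 8.24 in FADD IEC-KO Zbp1 -/- (-0.29, adjusted p = 0.00826) and between 7.95 and 8.10 in the FADD IEC-KO RIPK3 IEC-KO mice (-0.39, adjusted p = 0.00433). No mouse of these groups reached the lowest Fadd fl/fl value of 8.30. Col6a3, the long chain, was 8.73 to 9.35 in Fadd fl/fl, 8.31 to 8.53 in FADD IEC-KO Mlkl -/- (-0.49, adjusted p = 0.00388) and 8.21 to 8.68 in FADD IEC-KO RIPK3 IEC-KO (-0.45, adjusted p = 0.0362), without overlap. The Col6a3 call in FADD IEC-KO RIPK3 IEC-KO was lost without Fadd fl/fl replicate 4 (-0.35, adjusted p = 0.173). The FADD IEC-KO Zbp1 -/- mice had Col6a3 at 8.66 to 9.15, with a change of -0.06 (adjusted p = 0.81). Among mice with title numbers under 100, the falls of Col6a1 (-0.46, adjusted p = 0.0277) and Col6a2 (-0.68, adjusted p = 0.0192) in FADD IEC-KO Mlkl -/- passed the test.

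The 6 members that are no collagens all fell in FADD IEC-KO Mlkl -/- mice. Postn encodes periostin, a secreted protein that binds collagen and fibronectin. It was 8.71, 8.73, 9.25, 8.83 and 9.42 in Fadd fl/fl, 7.50, 7.37, 8.44, 8.51 and 8.32 in FADD IEC-KO and 7.82, 7.90, 7.24, 7.80 and 7.66 in FADD IEC-KO Mlkl -/-. Every FADD IEC-KO mouse lay below every Fadd fl/fl mouse, with replicates 1 and 2 lowest. The changes were -0.96 ± 0.20 (adjusted p = 0.00452) in FADD IEC-KO and -1.30 ± 0.20 (adjusted p = 4.46e-05) in FADD IEC-KO Mlkl -/-, a 2.47-fold fall. Postn in FADD IEC-KO Zbp1 -/- was 7.84, 7.88, 8.32, 7.74 and 7.69, with a change of -1.10 ± 0.20 (adjusted p = 0.000323). The FADD IEC-KO RIPK3 IEC-KO mice had 8.34, 7.99, 7.78, 8.84 and 8.44, overlapping with Fadd fl/fl, and the change of -0.71 ± 0.20 did not pass the test (adjusted p = 0.0739). The fall in FADD IEC-KO was -0.83 without replicate 1 (adjusted p = 0.0201) and -0.77 among mice with title numbers under 100 (adjusted p = 0.325). Fitted on these groups alone the change was -0.96 with an adjusted p of 0.0887.

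Sparc encodes a collagen-binding glycoprotein that takes part in fibril assembly. It was 9.90, 10.28, 10.50, 10.56 and 10.71 in Fadd fl/fl and 9.36, 8.95, 10.09, 9.54 and 10.32 in FADD IEC-KO, with replicates 3 and 5 inside the control range. The change was -0.74 ± 0.17 (adjusted p = 0.0121). Without FADD IEC-KO replicate 2 it was -0.56 and no longer passed the test (adjusted p = 0.0694). Without replicate 1 it was -0.66 (adjusted p = 0.0342). In FADD IEC-KO Mlkl -/- Sparc was 9.42, 9.78, 9.49, 9.50 and 9.25, below all controls (-0.90 ± 0.17, adjusted p = 0.000571). It was 9.60, 9.55, 9.43, 9.63 and 9.29 in the FADD IEC-KO RIPK3 IEC-KO mice, also below all controls (-0.89, adjusted p = 0.00447), and 9.46 to 10.06 in FADD IEC-KO Zbp1 -/- (-0.69, adjusted p = 0.00675), where the groups overlapped.

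Dcn and Lum encode decorin and lumican, small proteoglycans that sit on collagen fibrils and set their spacing. Dcn was 10.03, 10.61, 11.07, 10.80 and 11.06 in Fadd fl/fl and ranged from 9.51 to 10.30 in FADD IEC-KO Mlkl -/- (-0.76, adjusted p = 0.0194). It ranged from 9.48 to 10.57 in FADD IEC-KO Zbp1 -/- (-0.87, adjusted p = 0.00616) and from 9.63 to 10.12 in FADD IEC-KO RIPK3 IEC-KO (-0.82, adjusted p = 0.0463). Fadd fl/fl replicate 1, at 10.03, overlapped with each of these groups. In FADD IEC-KO Dcn was 9.64, 9.17, 10.40, 10.22 and 10.54 (-0.72 ± 0.22, adjusted p = 0.0536), with a change of -0.63 (adjusted p = 0.122) without replicate 1 and of -0.85 (adjusted p = 0.0266) without replicate 5. Lum was 6.88 to 8.09 in Fadd fl/fl and 7.25, 6.85, 5.99, 6.63 and 6.36 in FADD IEC-KO Mlkl -/- (-0.90 ± 0.28, adjusted p = 0.0287). This call was lost without FADD IEC-KO Mlkl -/- replicate 3 (-0.75, adjusted p = 0.106), as was that of Dcn (-0.64, adjusted p = 0.0748). The Dcn call in FADD IEC-KO RIPK3 IEC-KO was lost without Fadd fl/fl replicate 5 (-0.73, adjusted p = 0.146).

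Fn1 encodes fibronectin, which links cells to the matrix. It was 8.68, 8.74, 9.13, 9.06 and 9.35 in Fadd fl/fl and 8.48, 8.43, 8.01, 8.05 and 8.04 in FADD IEC-KO Mlkl -/-, without overlap (-0.79 ± 0.21, adjusted p = 0.0113). Without Fadd fl/fl replicate 5 the change was -0.70 (adjusted p = 0.0506). In FADD IEC-KO it was 8.12, 8.03, 9.27, 9.34 and 9.02, so that 2 mice lay below all controls and 3 inside their range. The group mean of 8.76 ± 0.64 (SD, n = 5) gave a change of -0.24 that did not pass the test (adjusted p = 0.614), and -0.08 (adjusted p = 0.906) without replicate 1. Thy1 encodes a surface protein of fibroblasts that mouse T cells also carry. It was 6.75, 6.87, 6.96, 7.01 and 6.92 in Fadd fl/fl and 6.52, 6.48, 6.57, 6.52 and 6.30 in FADD IEC-KO Mlkl -/- (-0.42, adjusted p = 0.00907), without overlap. None of 9 T cell genes passed the test in that comparison (6.35% of all genes fell), and their median change was -0.07. The mean level of these genes per mouse was 5.86 to 6.80 in Fadd fl/fl (median 6.65). It was 6.19 to 6.47 in FADD IEC-KO Mlkl -/- (median 6.30). The part of T cells in the change of Thy1 was not tested.

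The basement membrane collagens moved less. Col4a1 and Col4a2 encode the chains of the common type IV network. Their RefSeq starts lie 21 bases apart on opposite strands. Col4a2 was 7.61, 7.65, 7.80, 7.91 and 7.93 in Fadd fl/fl and 7.44, 7.57, 7.15, 7.68 and 7.01 in FADD IEC-KO Mlkl -/-, with replicate 4 inside the control range (-0.41 ± 0.11, adjusted p = 0.0119). Without FADD IEC-KO Mlkl -/- replicate 5 the change was -0.32 (adjusted p = 0.0668). Col4a1 changed by -0.02 ± 0.10 in the same comparison (adjusted p = 0.949). Col4a3 to Col4a6 and the multiplexins Col15a1 and Col18a1, which lie in or near basement membranes, passed the test in none of the 15 comparisons. Col18a1, the source of endostatin, was 6.65, 6.65, 6.65, 6.86 and 6.98 in Casp8 fl/fl and 6.98, 7.50, 7.06, 7.28 and 7.23 in CASP8 IEC-KO (0.45 ± 0.15, adjusted p = 0.0701), and the groups did not overlap.

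**Figure D2:**
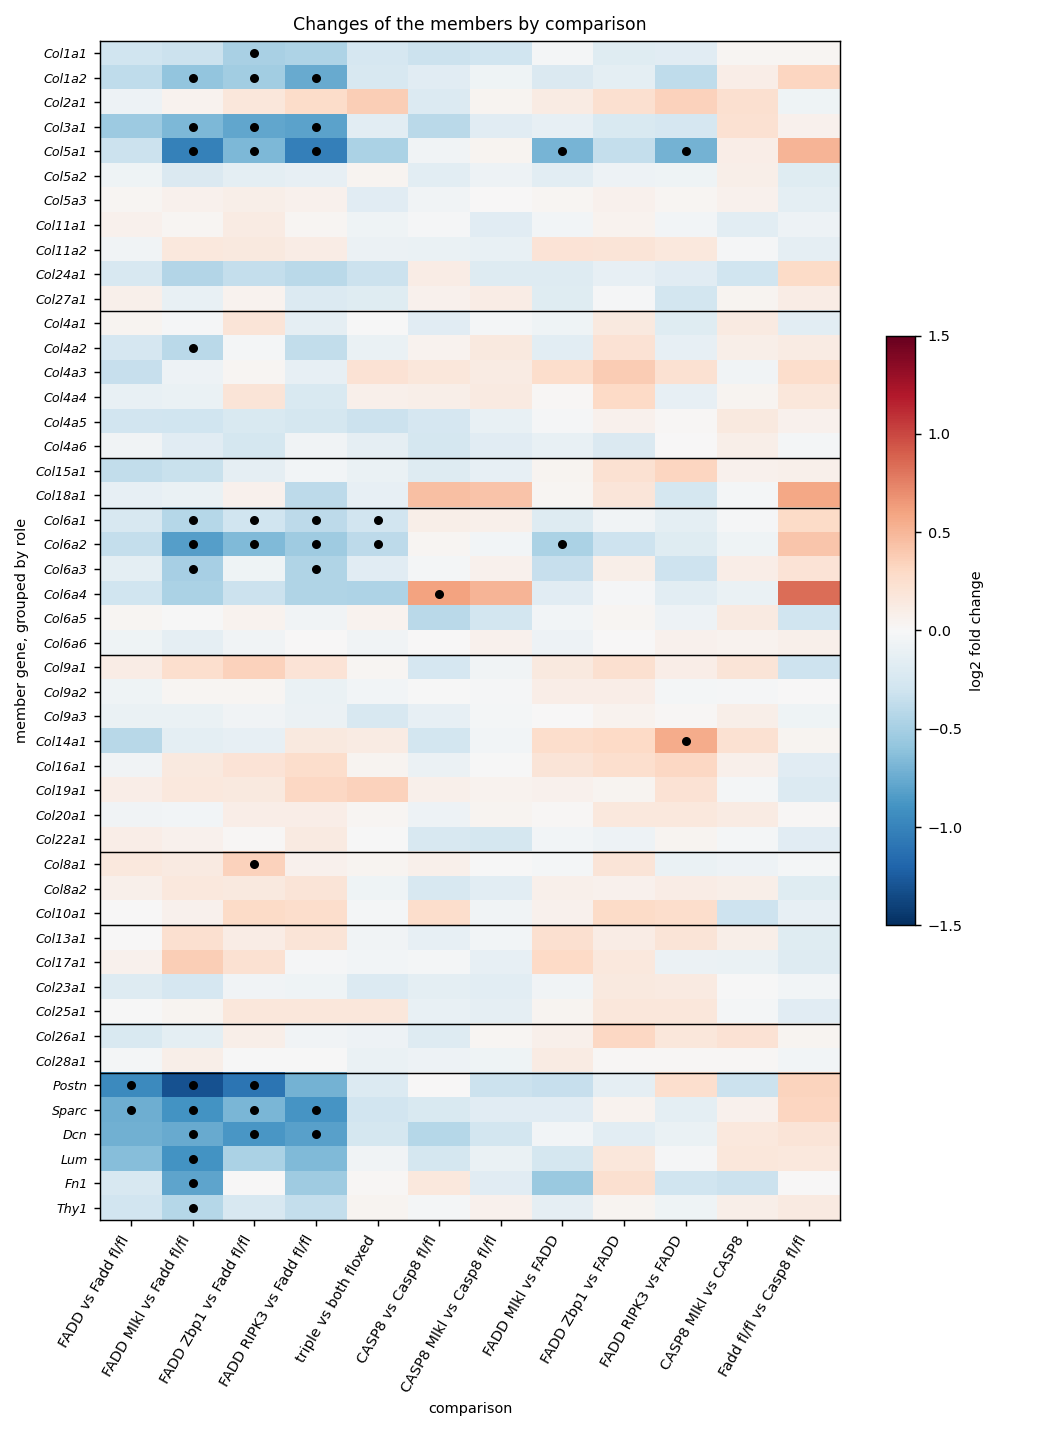
Log2 fold change of the 48 members (rows, grouped by role and separated by lines) in 12 comparisons (columns), blue for lower and red for higher in the group named first; dots mark an adjusted p under 0.05 in limma. Dots lie mainly in the 3 columns of FADD-deficient double mutants against Fadd fl/fl (13, 10 and 8), which share their control mice.

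The remaining classes held few calls. Among 8 fibril-associated collagens only Col14a1, which decorates type I fibrils, passed the test. It was 5.40, 5.50, 5.12, 5.01 and 5.39 in FADD IEC-KO and 5.75, 6.14, 5.67, 5.77 and 5.89 in the FADD IEC-KO RIPK3 IEC-KO mice. The second group lay wholly above the first (0.56 ± 0.13, adjusted p = 0.0182). Without FADD IEC-KO replicate 3 the difference was 0.52 (adjusted p = 0.0818). It was 5.63, 5.58, 5.62, 5.76 and 5.92 in Fadd fl/fl, above all FADD IEC-KO mice, with a change of -0.42 in FADD IEC-KO (adjusted p = 0.0552), and of -0.45 (adjusted p = 0.0589) without replicate 1. Among 3 short-chain collagens Col8a1, a collagen of vessel walls, rose in FADD IEC-KO Zbp1 -/- from 6.31, 6.35, 5.91, 6.35 and 5.88 to 6.79, 6.44, 6.31, 6.50 and 6.51 (0.35, adjusted p = 0.0387), with overlap, and without Fadd fl/fl replicate 5 it was 0.28 (adjusted p = 0.149). The 4 transmembrane collagens and Col26a1 and Col28a1 passed the test nowhere. Col13a1, at 6.70 to 7.25 in Fadd fl/fl and 7.07 to 7.51 in FADD IEC-KO Mlkl -/-, and Col28a1, at 7.12 to 7.34 and 7.25 to 7.47, stand for these classes.

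Set against FADD IEC-KO itself, the added mutations changed few members. FADD IEC-KO Mlkl -/- mice had 2 lower members (0.749% of all genes fell), Col5a1 and Col6a2, and neither overlapped between the groups (1.74% of all genes). Col6a2 changed by -0.47 ± 0.12 (adjusted p = 0.019). The count was 0 without FADD IEC-KO replicate 3 or 5 or FADD IEC-KO Mlkl -/- replicate 1, and 1 without FADD IEC-KO replicate 2 or 4 or FADD IEC-KO Mlkl -/- replicate 3, 4 or 5. Among mice with title numbers under 100 it was 0. FADD IEC-KO RIPK3 IEC-KO mice had Col5a1 lower (0.723% of all genes) and Col14a1 higher (0.831% of all genes). Col27a1 alone lay lower without overlap (1.3% of all genes), with an adjusted p of 0.226. The 2 calls became 0 without FADD IEC-KO RIPK3 IEC-KO replicate 2 or FADD IEC-KO replicate 3, and 1 without FADD IEC-KO RIPK3 IEC-KO replicate 3 or 4 or FADD IEC-KO replicate 2 or 5. In FADD IEC-KO Zbp1 -/- against FADD IEC-KO limma called 0 members and 3.32% of all genes. An unadjusted p under 0.05 was found there for 5 of 48 members and for 3465 of all 19494 genes. Without FADD IEC-KO replicate 1 the 3 counts were again 2, 2 and 0. These comparisons share the FADD IEC-KO mice.

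In CASP8 IEC-KO against Casp8 fl/fl limma called only Col6a4, one of the alternative long chains of type VI collagen, which rose (2.89% of all genes rose). An unadjusted p under 0.05 was found for 7 of 48 members, 5 lower and 2 higher, and for 3653 of all 19494 genes. Col6a4 was 6.51, 6.34, 6.48, 7.17 and 7.17 in Casp8 fl/fl and 7.48, 7.01, 7.22, 7.56 and 7.40 in CASP8 IEC-KO. Replicates 4 and 5 of the controls lay inside the range of the knockout (0.60 ± 0.17, adjusted p = 0.0393). The count of 1 fell to 0 without Casp8 fl/fl replicate 1, 2 or 3 or CASP8 IEC-KO replicate 2, 3, 4 or 5, and was 2 without Casp8 fl/fl replicate 5. The difference was 0.61 (adjusted p = 0.0678) among title numbers under 100 and 0.31 (adjusted p = 0.926) among those of 200 and over, where 1 Casp8 fl/fl mouse is assumed to vary like the other groups. Col3a1 was 9.26, 9.24, 9.22, 9.67 and 9.26 in Casp8 fl/fl and 8.88, 8.68, 8.90, 8.95 and 9.21 in CASP8 IEC-KO. It was the single member whose CASP8 IEC-KO mice all lay below the controls (1.57% of all genes), by a narrow gap, and its change of -0.40 ± 0.16 did not pass the test (adjusted p = 0.156). Postn, at 8.43 to 8.85 in Casp8 fl/fl and 8.46 to 9.13 in CASP8 IEC-KO, changed by 0.01 ± 0.20 (adjusted p = 0.993). In CASP8 IEC-KO Mlkl -/- limma called 0 members against Casp8 fl/fl, and 1.09% of all genes. An unadjusted p under 0.05 was found for 3 of 48 members and for 2303 of all 19494 genes. Against CASP8 IEC-KO limma called 0 members and 2.78% of all genes. There 0 members and 2475 of all genes had an unadjusted p under 0.05.

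The difference between the 2 deletions was tested itself. The log2 change on FADD loss minus that on caspase-8 loss was called for 0 members and 0% of all genes in limma. An unadjusted p under 0.05 was found for 8 of 48 members and for 1271 of all 19494 genes. For Postn the difference was -0.97 ± 0.29 (adjusted p = 0.408). The same test in the groups labelled Mlkl -/-, added after the results had been seen, called 4 members as lower on the FADD side (0.441% of all genes). They were Col5a1 (-1.06 ± 0.27, adjusted p = 0.0462), Col6a1 (-0.51 ± 0.11, adjusted p = 0.0168), Col6a2 (-0.79 ± 0.16, adjusted p = 0.015) and Col6a4 (-0.98 ± 0.25, adjusted p = 0.0462). The floxed groups also differed in their means: Fadd fl/fl exceeded Casp8 fl/fl by 0.51 for Col5a1 (adjusted p = 0.386), 0.28 for Col6a1 (adjusted p = 0.186), 0.42 for Col6a2 (adjusted p = 0.188) and 0.83 for Col6a4 (adjusted p = 0.0722). Col6a1 and Col6a4 had no overlap between these control groups, with Fadd fl/fl higher, as had 101 of all 19494 genes. Between them 8 of 48 members and 1634 of all 19494 genes had an unadjusted p under 0.05. No member was called between the floxed groups in limma, and 0.00513% of all genes were called. That count was 2 without Fadd fl/fl replicate 1 and 1 without Casp8 fl/fl replicate 4 or 5. With the title number series as a covariate the interaction in the Mlkl -/- groups was called for 2 members, Col6a1 (-0.46, adjusted p = 0.0399) and Col6a2 (-0.66, adjusted p = 0.0296). Col5a1 (-0.83, adjusted p = 0.101) and Col6a4 (-0.88, adjusted p = 0.103) then did not pass the test. All FADD IEC-KO Mlkl -/- mice and 2 of 5 Fadd fl/fl mice were in the series under 100. The count of 4 became 2 without any 1 of 15 of the 20 mice, among them Fadd fl/fl replicates 2 to 5, Casp8 fl/fl replicates 1 to 3, FADD IEC-KO Mlkl -/- replicates 1, 3 and 5 and each CASP8 IEC-KO Mlkl -/- mouse.

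Both floxed groups as the comparator were an alternative chosen after seeing the data. In limma Sparc, Dcn and Col3a1 then fell in FADD IEC-KO and in each of its double mutants with Mlkl, Zbp1 and Ripk3. Postn fell in all of these lines but FADD IEC-KO RIPK3 IEC-KO, where its change of -0.54 did not pass the test (adjusted p = 0.123). The shares of all genes called with this comparator are not given here. In FADD IEC-KO the calls were Postn, Dcn, Sparc, Col3a1 and Col14a1, with changes from -0.79 (Postn, adjusted p = 0.00363) to -0.40 (Col14a1, adjusted p = 0.0201). FADD IEC-KO Mlkl -/- had 14 lower members, from Postn at -1.14 ± 0.18 (adjusted p = 2.06e-05) to Col6a1 at -0.29 (adjusted p = 0.0021). In FADD IEC-KO Zbp1 -/- Col5a1 changed by -0.42 (adjusted p = 0.0834), Col1a2 by -0.35 (adjusted p = 0.0833) and Col6a1 by -0.15 (adjusted p = 0.128) against both floxed groups, and none of the 3 passed the test. In FADD IEC-KO RIPK3 IEC-KO Col6a1 (-0.25, adjusted p = 0.0512), Col6a2 (-0.33, adjusted p = 0.0977) and Col6a3 (-0.35, adjusted p = 0.0718) did not pass it either.

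**Figure D3:**
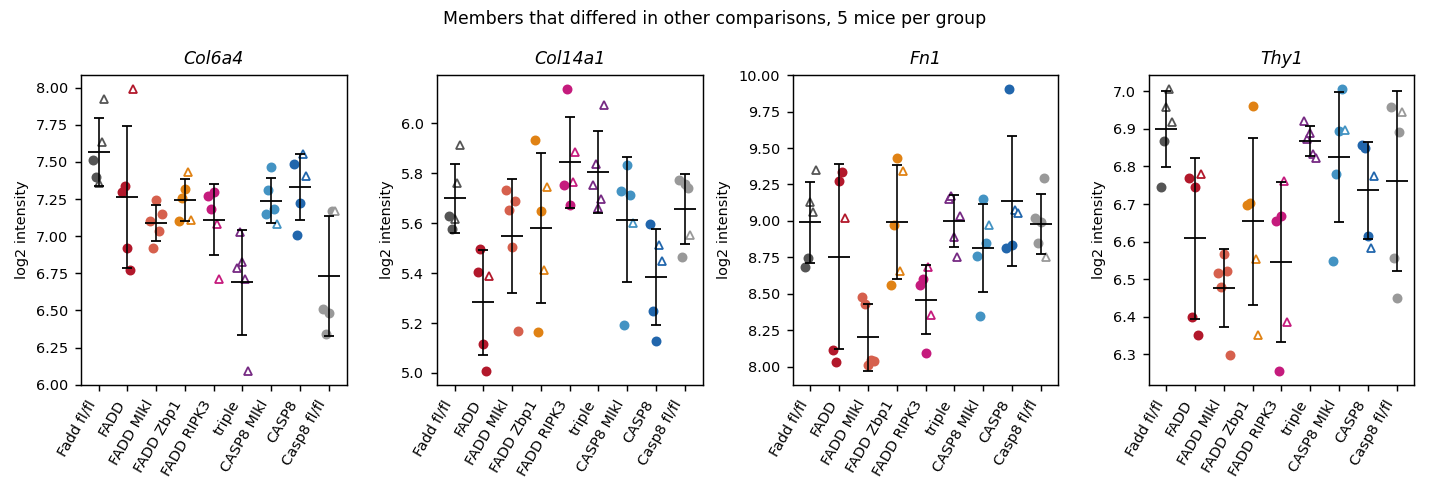
Log2 intensity of Col6a4, Col14a1, Fn1 and Thy1 (panels) in the 9 groups, with symbols and bars as in the plot of interstitial matrix genes. Col6a4 is 7.36 to 7.93 in Fadd fl/fl, above the 6.34 to 7.17 of Casp8 fl/fl, and Fn1 splits the FADD IEC-KO mice into 2 low and 3 higher values.

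In the triple mutants, against both floxed groups, Col6a1 and Col6a2 fell (1.54% of all genes fell), and 0 members lay lower without overlap (0.595% of all genes). Col6a2 was 8.04, 8.22, 8.21, 8.24 and 8.21 in triple mutants (-0.40 ± 0.10, adjusted p = 0.0175) and Col6a1 7.86, 8.05, 8.02, 7.97 and 7.95 (-0.29 ± 0.07, adjusted p = 0.00825). The count was 1 without triple mutant replicate 1, whose Col6a2 value was the lowest. Postn was 8.71, 8.87, 8.78, 8.50 and 8.21, with a change of -0.20 (adjusted p = 0.591). Set against FADD IEC-KO Mlkl -/- mice, a comparison added after the results had been seen, 4 members were higher (5.51% of all genes): Postn (0.93 ± 0.20, adjusted p = 0.00335), Fn1 (0.80 ± 0.21, adjusted p = 0.014), Thy1 (0.39, adjusted p = 0.0205) and Col5a2 (0.35, adjusted p = 0.0237). Fn1 was 9.15, 9.17, 8.89, 8.75 and 9.03 and Thy1 6.82 to 6.92 in triple mutants, both above all FADD IEC-KO Mlkl -/- mice. Here title number series and genotype cannot be told apart, since each group lies in 1 series. The count was 2 without triple mutant replicate 1 or FADD IEC-KO Mlkl -/- replicate 5. The Col5a2 call was lost without triple mutant replicate 3 (0.30, adjusted p = 0.0858). With the series as a covariate, estimated from the other groups, it was 0, and Postn differed by 0.75 (adjusted p = 0.0646). In the same comparison 12 of 13 smooth muscle genes were higher (median 0.78); their part in the result was not tested.

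Genes that process, bind or break down the matrix were followed through lists chosen with earlier results of these data known. Against Fadd fl/fl, 1.92%, 6.35%, 7.08% and 0.662% of all genes fell in FADD IEC-KO and its double mutants with Mlkl, Zbp1 and Ripk3. In the same order 353, 803, 932 and 110 of all 19494 genes rose. Of 25 genes of collagen processing, 5 fell and none rose in FADD IEC-KO Mlkl -/- against Fadd fl/fl, among them Bmp1, the procollagen C-proteinase (-0.92 ± 0.20, adjusted p = 0.00181), and Serpinh1, the collagen chaperone HSP47 (-0.62 ± 0.17, adjusted p = 0.0119). Of the same list 7 fell and 1 rose in FADD IEC-KO Zbp1 -/-. Serpinh1 alone fell in FADD IEC-KO RIPK3 IEC-KO (-0.67, adjusted p = 0.0352), and in FADD IEC-KO Pcolce2 (-0.60, adjusted p = 0.0339) and Loxl3 (-0.48, adjusted p = 0.0124) fell. Of 17 genes of matrix breakdown and its inhibitors, 3, 4, 8 and 2 fell in FADD IEC-KO and its double mutants with Mlkl, Zbp1 and Ripk3, in this order, and none rose. Mmp2, a protease of denatured and type IV collagen, changed by -0.79 (adjusted p = 0.00446), -0.85 (adjusted p = 0.000773), -1.16 (adjusted p = 7.86e-06) and -0.80 (adjusted p = 0.00821).

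In the same comparisons and order, 1.92%, 6.35%, 7.08% and 0.662% of all genes fell. Of 19 elastic fibre and proteoglycan genes, 4, 9, 10 and 5 fell and none rose. Podn, a small leucine-rich proteoglycan, changed by -1.28 ± 0.18 in FADD IEC-KO Mlkl -/- (adjusted p = 4.45e-06). Of 14 laminin and basement membrane genes, 1, 8, 5 and 2 fell and 1, 0, 0 and 1 rose. Lama1 rose in FADD IEC-KO (0.47, adjusted p = 0.0186) and Lamb3, a chain of epithelial laminin, in FADD IEC-KO RIPK3 IEC-KO (0.72, adjusted p = 0.0133), while Lamb1 fell in the latter (-1.03, adjusted p = 0.0045). Of 20 TGF-beta pathway genes, 4, 9, 8 and 2 fell and none rose; Eng, a TGF-beta co-receptor, changed by -0.74, -1.04, -1.07 and -0.87 (adjusted p = 0.0361, 0.00098, 0.0006 and 0.0245). Of 8 collagen receptors 1, 2, 0 and 0 fell, Ddr2 being lower in FADD IEC-KO (-0.58, adjusted p = 0.03) and FADD IEC-KO Mlkl -/- (-0.72, adjusted p = 0.00212). In CASP8 IEC-KO against Casp8 fl/fl none of these 6 lists had a called gene, while 249 of all 19494 genes fell and 564 rose. Without FADD IEC-KO replicate 1 the FADD IEC-KO counts of lower genes were 3 for collagen processing, 4 for matrix breakdown, 0 for laminins, 1 for elastic fibres and proteoglycans, 0 for collagen receptors and 3 for the TGF-beta pathway. Eng (-0.74, adjusted p = 0.0564) and Ddr2 (-0.56, adjusted p = 0.0538) then did not pass the test, while Pcolce2, Loxl3, Mmp2 and Lama1 did.

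**Figure D4:**
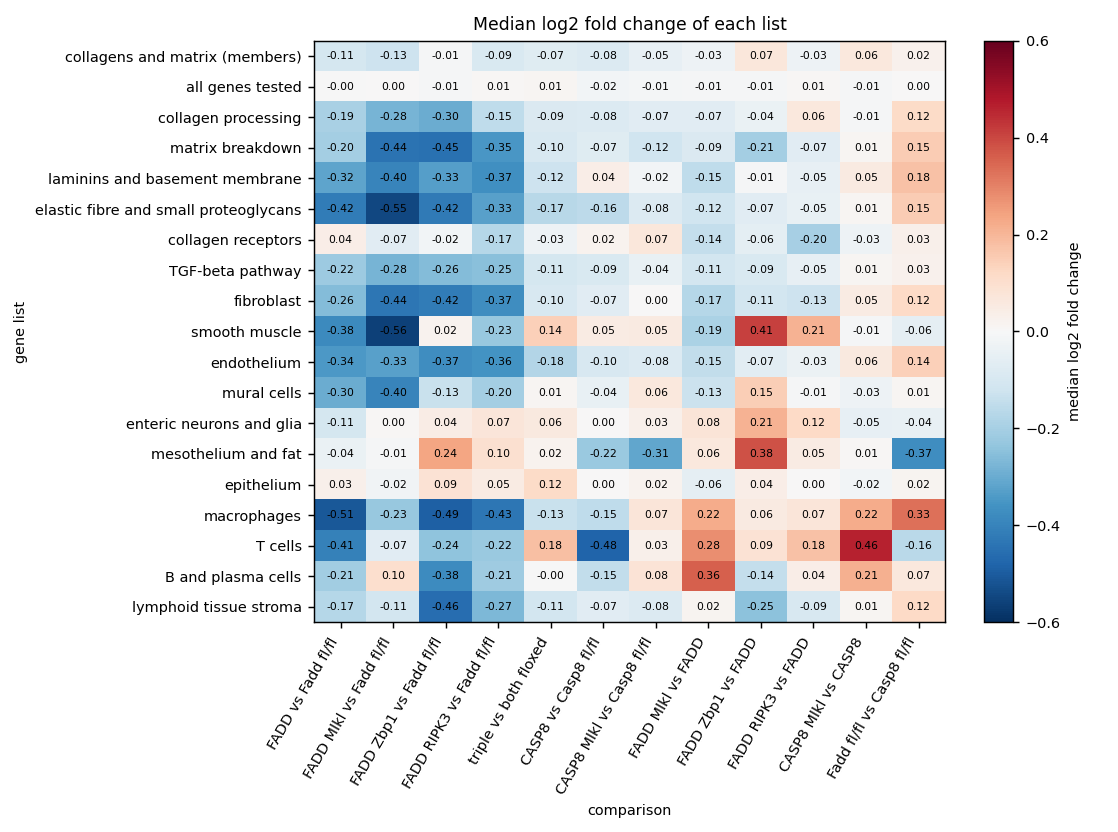
Median log2 fold change of the members, of all genes tested and of 17 gene lists (rows) in 12 comparisons (columns), printed in each cell. The fibroblast list lies at -0.26, -0.44, -0.42 and -0.37 in the 4 FADD-deficient lines against Fadd fl/fl, while the smooth muscle list is -0.56 in FADD IEC-KO Mlkl -/- and 0.02 in FADD IEC-KO Zbp1 -/-.

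Markers of cell types were counted against Fadd fl/fl in FADD IEC-KO and its double mutants with Mlkl, Zbp1 and Ripk3, in this order. Of all genes 1.92%, 6.35%, 7.08% and 0.662% fell in these comparisons. Of 15 fibroblast markers, 2, 7, 8 and 2 fell and none rose. Their mean log2 level per mouse was 7.25 to 7.65 in Fadd fl/fl, 7.01 to 7.48 in FADD IEC-KO, at most 7.24 in FADD IEC-KO Mlkl -/-, 7.08 to 7.27 in FADD IEC-KO Zbp1 -/- and 7.02 to 7.35 in FADD IEC-KO RIPK3 IEC-KO. Dpt, a fibroblast matrix protein, changed by -0.85 (adjusted p = 0.00964), -0.99 (adjusted p = 0.000709), -0.94 (adjusted p = 0.00111) and -0.86 (adjusted p = 0.0171). Of 13 smooth muscle markers 1, 7, 0 and 0 fell; their level was 8.94 to 9.74 in Fadd fl/fl, 8.58 to 8.90 in FADD IEC-KO Mlkl -/- and between 9.20 and 9.63 in FADD IEC-KO Zbp1 -/-. Cnn1, a smooth muscle calponin, was lower by -1.15 ± 0.23 in FADD IEC-KO Mlkl -/- (adjusted p = 0.000644). Of 12 endothelial markers 1, 5, 5 and 0 fell and 0, 0, 1 and 0 rose; their level was 6.61 to 6.95 in Fadd fl/fl, 6.28 to 6.52 in FADD IEC-KO Mlkl -/- and between 6.28 and 6.48 in FADD IEC-KO Zbp1 -/-. Of 9 macrophage markers 3, 0, 4 and 0 fell, with levels of 6.69 to 7.31 in Fadd fl/fl, 6.06 to 7.15 in FADD IEC-KO and 6.47 to 7.03 in FADD IEC-KO Zbp1 -/-. Without FADD IEC-KO replicate 1, 2 fibroblast, 0 smooth muscle, 0 endothelial and 3 macrophage markers fell in FADD IEC-KO, and Dpt changed by -0.80 (adjusted p = 0.0234). The part of these cell types in the changes of the collagens was not tested.

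Of 6 mural cell markers 1, 3, 0 and 0 fell in the 4 FADD-deficient lines, and of 10 neuronal and glial markers 1, 2, 0 and 0. In the same order 1.92%, 6.35%, 7.08% and 0.662% of all genes fell, and 353, 803, 932 and 110 of all 19494 genes rose. Epithelial markers moved little: their level lay between 11.10 and 11.33 on all arrays, and of 12 genes 0, 1, 0 and 0 fell and 1, 1, 2 and 1 rose. Krt20, a keratin of mature villus cells, was higher by 0.23 (adjusted p = 0.029) in FADD IEC-KO and by 0.28 (adjusted p = 0.00287) in FADD IEC-KO Zbp1 -/-. Without FADD IEC-KO replicate 1 its change in FADD IEC-KO was 0.22 (adjusted p = 0.0554), and 0 mural, 0 neuronal and glial and 1 T cell marker fell there. Of 9 T cell genes 1, 0, 1 and 0 fell, of 8 B and plasma cell genes 0, 0, 3 and 0, of 7 lymphoid tissue stroma genes 0, 0, 1 and 0, and of 10 mesothelial and fat genes none, while Cidec rose in FADD IEC-KO Zbp1 -/- (adjusted p = 0.00277).

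Whether members varied together among mice of the same genotype was examined for 5 pairs of members and 2 pairs of a member with a marker of another cell type, as deviations of the 45 mice from their group means. P-values are two-sided, from 100000 permutations of mice within groups, and are adjusted over the 7 pairs. Dcn and Lum, neighbouring genes on chromosome 10, deviated together, with Pearson's r = 0.90 and Spearman's rho = 0.91 (permutation p = 1e-05 for both, the smallest these permutations can give, adjusted p = 7e-05). For Col1a1 and Col3a1 r was 0.65 and rho 0.58 (permutation p = 0.00017 and 0.00042, adjusted p = 0.00059 and 0.0013). For Postn and Sparc r was 0.62 and rho 0.58 (permutation p = 0.0005 and 0.00054, adjusted p = 0.0012 and 0.0013). For Col6a1 and Col6a2, which also neighbour each other on chromosome 10, r was 0.49 and rho 0.38 (permutation p = 0.009 and 0.022, adjusted p = 0.016 and 0.039). Col4a1 and Col4a2 gave r = 0.26 and rho = 0.32 (permutation p = 0.091 and 0.041, adjusted p = 0.13 and 0.057).

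The pairs with other cell types did not pass the test over all 45 mice. For Col1a1 and the smooth muscle myosin Myh11 r was 0.28 and rho 0.29 (permutation p = 0.17 and 0.075, adjusted p = 0.17 and 0.088), and for Col4a1 and the endothelial Pecam1 r was -0.23 and rho -0.16 (permutation p = 0.17 and 0.35, adjusted p = 0.17 and 0.35). Without the 2 mice farthest from the median of the first gene, r was 0.89 for Dcn and Lum, 0.57 for Col1a1 and Col3a1, 0.57 for Postn and Sparc, 0.48 for Col6a1 and Col6a2, 0.28 for Col4a1 and Col4a2, 0.34 for Col1a1 and Myh11 (rho 0.37, adjusted permutation p = 0.045 for rho and 0.086 for r) and -0.23 for Col4a1 and Pecam1. Among the 28 mice with title numbers under 100 r was, in the same order, 0.89, 0.65, 0.68, 0.25, 0.39, 0.43 and -0.24. Among 14 mice with numbers of 200 and over, in groups with at least 2 such mice, it was 0.86, 0.65, 0.67, 0.76, -0.12, -0.34 and 0.25.

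**Figure D5:**
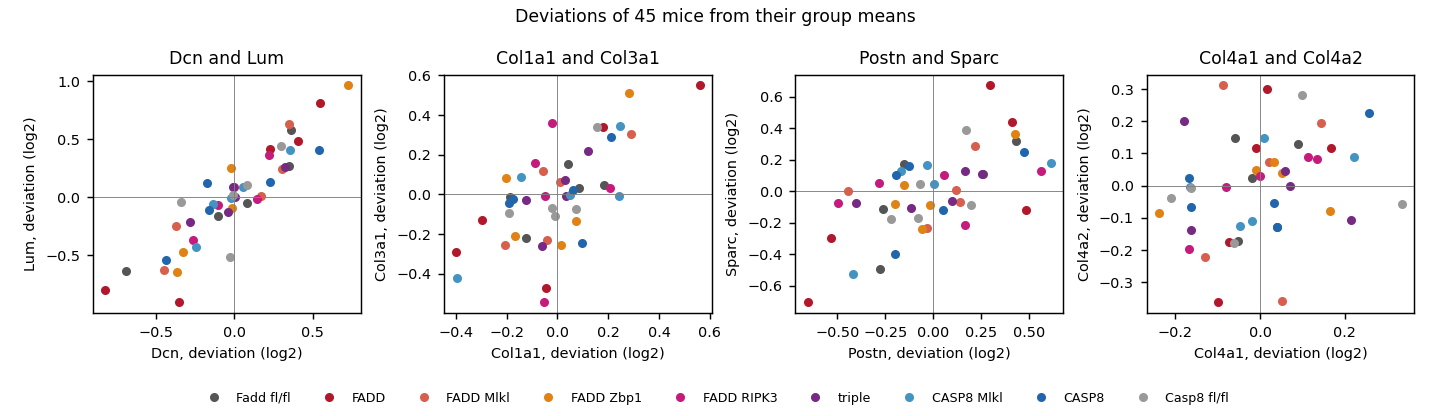
Deviation of each of 45 mice from its group mean (log2) for 4 pairs of members, coloured by group. Dcn and Lum lie close to a line (r = 0.90), Col1a1 and Col3a1 (0.65) and Postn and Sparc (0.62) scatter more, and Col4a1 and Col4a2 (0.26) show no clear relation.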

How the data were processed

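RNA of whole ileum from 45 mice was hybridised to whole-transcript arrays with a WT PLUS kit, per the labels' protocols. Per the submitters' processing notes, the authors used Affymetrix Expression Console and Transcriptome Analysis Console. Tool versions, the summarization method and the genome build are not given in the sources used here. Per the deposited table, values are log2 intensities on a common scale across arrays, and they were used as they stand. Of 22142 probes, 19527 had 1 gene symbol in the platform annotation and 2615 none; taking for each symbol its probe of highest mean left 19494 genes. No filter on dim genes was applied; 41 of the 48 members lay above the 25th percentile of gene means. Precision is limited by the number of arrays, 5 mice per group.

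Groups followed the sample titles. limma 3.58.1 in R 4.3.3 was fitted with 1 mean per group to all 45 arrays (36 residual degrees of freedom), followed by contrasts and eBayes. Benjamini-Hochberg adjustment ran over 19494 genes, and a gene was called at an adjusted p under 0.05. There were 13 comparisons and 2 added after seeing the data. Errors of changes are standard errors of this fit, and the code was tested on simulated data. Correlations used Python 3.11.15 with scipy 1.17.1. Members described with values are those called in at least 1 comparison and, for a class without one, the member with the highest mean; up to 3 called genes are named per list, or fewer. The members, lists and tests were chosen with earlier results of these data known, and a list is described by its counts and median, without a test. Promoters came from RefSeq tables of GRCm38.p6, used also for which genes are neighbours. Alternatives were quantile normalization, median centring, the mean of a gene's probes, leaving out dim genes, the title number series, array weights, a fit of only the groups compared, leaving out each mouse and, added after seeing the data, both floxed groups as the comparator and the gene lists without FADD IEC-KO replicate 1.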

Additional observations from a re-analysis of the deposited data

Results flagged for a closer look

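Among the 21 described members in 9 groups, 6 of 189 sets of 5 values (3.17%) held a mouse far from the other 4, by a gap of over 0.71 of the whole range; chance gives about 1 in 20. Replicate 1 of FADD IEC-KO RIPK3 IEC-KO had Col1a1 at 8.224, above 7.931 to 7.997 in the others. Col3a1 was 9.67 in Casp8 fl/fl replicate 4, above 9.218 to 9.261. Fn1 was 9.908 in CASP8 IEC-KO replicate 2, above 8.812 to 9.078. Col6a2 was 8.036 in triple mutant replicate 1, below 8.205 to 8.245. Sparc was 9.375 in CASP8 IEC-KO Mlkl -/- replicate 2, below 9.943 to 10.075. Col28a1 was 7.116 in Fadd fl/fl replicate 3, below 7.275 to 7.337.

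In the groups labelled Mlkl -/-, 4 members differed between FADD loss and caspase-8 loss by the interaction test in limma. The difference was -1.06 for Col5a1 (adjusted p = 0.0462), -0.509 for Col6a1 (adjusted p = 0.0168), -0.79 for Col6a2 (adjusted p = 0.015) and -0.981 for Col6a4 (adjusted p = 0.0462). With the title number series as a covariate Col5a1 (adjusted p = 0.101) and Col6a4 (adjusted p = 0.103) did not pass it. For Col6a4 all 5 FADD IEC-KO Mlkl -/- mice lay below the Fadd fl/fl mean (change -0.477) and all 5 CASP8 IEC-KO Mlkl -/- mice above the Casp8 fl/fl mean (change 0.504). Col4a2 showed the same split, with changes of -0.408 and 0.143 and a difference of -0.551, which did not pass the interaction test (adjusted p = 0.0914).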

How the results depend on the processing

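Of 130 recomputed counts of called members, leave-outs of single mice aside, 94 stayed within 1.5 times the reported count and 36 did not. No named call changed sign. Counts of 0 that stayed 0 are among the 94. Each member has 1 probe, so taking the mean of a gene's probes left the members' values as they were. For FADD IEC-KO against Fadd fl/fl (2 calls) the count was 5 with quantile normalization, 4 with median centring, 7 with dim genes left out, 0 among title numbers under 100, 0 among those of 200 and over, 4 with array weights, 0 in a fit of the groups compared and 5 with both floxed groups as comparator. For CASP8 IEC-KO against Casp8 fl/fl (1) it was 2 with median centring, 3 with array weights, and 0 with the series as a covariate, within either series and in a fit of the groups compared. For FADD IEC-KO Mlkl -/- against FADD IEC-KO (2) and FADD IEC-KO RIPK3 IEC-KO against FADD IEC-KO (2) it was 0 under 100 and 0 in a fit of the groups compared. For FADD IEC-KO Zbp1 -/- against FADD IEC-KO (0) it was 1 with the covariate and 2 among 200 and over. Among title numbers under 100, FADD IEC-KO Mlkl -/- against Fadd fl/fl (13) gave 3, FADD IEC-KO Zbp1 -/- (10) gave 0 and FADD IEC-KO RIPK3 IEC-KO (8) gave 0; the last gave 3 in a fit of the groups compared. CASP8 IEC-KO Mlkl -/- against Casp8 fl/fl (0) gave 1 under 100 and 2 with array weights. The triple mutants (2) gave 4 with the covariate and 1 among 200 and over. Fadd fl/fl against Casp8 fl/fl (0) gave 1 with quantile normalization, 1 with dim genes left out and 1 with array weights. The interaction in the Mlkl -/- groups (4) gave 2 with the covariate and 7 with array weights. Triple mutants against FADD IEC-KO Mlkl -/- (4) gave 0 with the covariate, 7 with array weights and 7 in a fit of the groups compared. Fewer mice entered the fits within a series and of the groups compared. The causes of the changed counts were not tested. The shares of all genes called under these alternatives and without single mice are not given here, so the counts are not set against them.

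Leaving out 1 mouse gave 1 to 8 calls for FADD IEC-KO, 0 to 2 for CASP8 IEC-KO, 10 to 13 for FADD IEC-KO Mlkl -/-, 8 to 11 for FADD IEC-KO Zbp1 -/-, 5 to 11 for FADD IEC-KO RIPK3 IEC-KO and 0 to 0 for CASP8 IEC-KO Mlkl -/-, each against its floxed group, and 1 to 3 for the triple mutants. It gave 0 to 2 for FADD IEC-KO Mlkl -/- and FADD IEC-KO RIPK3 IEC-KO against FADD IEC-KO, 0 to 2 between the floxed groups, 2 to 6 for the interaction in the Mlkl -/- groups and 2 to 5 for triple mutants against FADD IEC-KO Mlkl -/-. Of 48 named calls, 17 were lost in a fit of the groups compared, 12 with the series as a covariate and 21 without at least 1 of the mice; 35 of 38 were lost among title numbers under 100 and 11 of 25 among those of 200 and over. Quantile normalization and dim genes left out lost 0.

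Within title numbers under 100 the correlation of Col6a1 and Col6a2 was 0.2542 and did not pass the test, while Col4a1 and Col4a2 passed by rho (0.5452, adjusted permutation p = 0.017). With quantile normalization Col6a1 and Col6a2 did not pass by rho (0.3198, adjusted permutation p = 0.076). Among those of 200 and over, 0.6497 for Col1a1 and Col3a1, 0.7632 for Col6a1 and Col6a2 and 0.6724 for Postn and Sparc did not pass it, and the sign turned for Col4a1 and Col4a2 (-0.1166), Col1a1 and Myh11 (-0.3441) and Col4a1 and Pecam1 (0.2517). No paired analysis was made because the labels used here do not pair mice between groups.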
